A study of Mus musculus with 6 samples.

Results

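Interferon-stimulated genes and interferon sensors were followed in 6 soft tissue tumors from 6 female NT3 mice. The set comprised 39 genes, picked by symbol from the 23358 entries of a gene count table with earlier results of these data known, and all 39 passed the filter on low counts in both comparisons described here. In NT3 mice a form of NF-κB-inducing kinase (NIK) that lacks its TRAF3-binding domain is expressed from the ROSA26 locus once Cre has removed a STOP cassette. Tumors 13, 18 and 25 came from Osx-Cre;NT3 mice, in which the doxycycline-repressible osterix driver was held off until weaning, and tumors 27, 29 and 36 from FSP1-Cre;NT3 mice, in which the S100a4 promoter drives Cre in fibroblasts and has also been documented in myeloid cells. All carried NT3, and no benign tissue is compared here.

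The 3 Osx-Cre;NT3 tumors were all on the trunk and had latencies of 150, 168 and 115 days (tumors 13, 18 and 25). Of the FSP1-Cre;NT3 tumors, tumor 29 was on the trunk with a latency of 72 days, and tumors 27 and 36 were perineal with latencies of 101 and 52 days. The Osx-Cre driver had a mixed background of C57Bl/6J with CD1, and the FSP1-Cre driver was FVB/n. By the paper, mice of the Osx-Cre cross were fed doxycycline chow until weaning. It also gives a lower average RNA integrity score for the Osx-Cre;NT3 tumors. Line, strain background, doxycycline, RNA integrity, latency and largely site therefore cannot be told apart. Each tumor is 1 mouse and 1 library, and p-values measure the spread between these animals. The whole tumors hold several cell types, and a lower level from fewer cells of a type cannot be told apart from less RNA per cell.

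Interferons are secreted proteins that tell cells of an infection or of misplaced nucleic acid. Type I interferons bind the IFNAR1 and IFNAR2 receptor and act through JAK kinases on a complex with STAT2 and IRF9 that binds the interferon-stimulated response element (ISRE) of antiviral genes, while interferon gamma binds the IFNGR1 and IFNGR2 receptor and acts on the gamma-activated site (GAS). Among the products are the RNA sensors that can start a further round of interferon production, such as RIG-I (Ddx58) and MDA5 (Ifih1), and the effectors that block viral growth. NIK, the kinase expressed in these mice, acts in the alternative NF-κB pathway and is degraded through TRAF3, which also takes part in interferon induction.

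To see which of these genes carry the response elements, RefSeq promoter windows of build GRCm38.p6 were read for the members, each from 250 bases before to 50 bases after the gene start. Windows were found for 31 of the 39. The ISRE-type motif GAAANNGAAA, searched on both strands, was present in 16 of the 31 (51.6%), against 3.99% of 27025 genes with a window. The GAS-type motif TTCNNNGAA was present in 11 (35.5%), against 9.55% of all genes, and the κB-type motif GGGANTTNCC in 0, against 1.38%. At so low a share, 0 of 31 windows does not show that the members lack κB sites. These are matches of letters, and many members are known as targets of these factors, so the shares describe the set and do not test it.

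The stretches below carry the motif in members whose levels are described further on, with 20 bases on each side where they fit before the gene start. They run 5′ to 3′ on the strand of the gene, and capitals mark the ISRE-type motif, which reads TTTCNNTTTC where it lies on the other strand. Neighboring matches overlap in Isg15, Oas1a, Bst2 and Irgm1.
Isg15, chr4:156200855-156200916, minus strand: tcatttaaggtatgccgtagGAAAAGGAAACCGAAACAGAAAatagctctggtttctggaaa
Ifit1, chr19:34640765-34640833, plus strand: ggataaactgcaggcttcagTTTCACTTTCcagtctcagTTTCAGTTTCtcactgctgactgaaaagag
Oas1a, chr5:120907526-120907565, minus strand: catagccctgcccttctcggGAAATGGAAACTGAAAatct
Bst2, chr8:71537567-71537622, minus strand: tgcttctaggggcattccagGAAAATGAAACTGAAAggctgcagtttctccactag
Gbp2, chr3:142620584-142620633, plus strand: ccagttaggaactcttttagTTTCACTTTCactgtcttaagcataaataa
Irgm1, chr11:48871421-48871470, minus strand: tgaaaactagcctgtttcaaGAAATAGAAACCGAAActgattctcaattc
Stat2, chr10:128270256-128270305, plus strand: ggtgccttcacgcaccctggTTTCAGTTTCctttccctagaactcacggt
In Irf1, a gene known for its response to interferon gamma, no ISRE-type match was found in the window, and capitals mark the GAS-type motif instead.
Irf1, chr11:53769904-53769952, plus strand: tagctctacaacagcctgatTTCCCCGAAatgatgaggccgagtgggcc
Isg15 held 3 ISRE-type matches between 57 and 78 bases before its start, Ifit1 held 2 between 76 and 104, and Gbp2 held 1 between 50 and 59.

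Levels are given as CPM, counts per 1000000 of the library total scaled by TMM (a factor that evens out library makeup), and as RPKM where genes are compared with each other, since RPKM also divides by length. Total counts ranged from 51824408 to 163297772, the largest being that of tumor 18. The tumors differed in cell makeup beyond the lines. Basal keratinocyte markers (Krt5, Krt14 and 4 others) were abundant in all, with summed levels from 5737 to 14643 CPM, the lowest in tumor 36. Tumor 36 stood apart with smooth muscle markers summing to 2068 CPM, against 225 to 507 CPM in the other 5, and adipocyte markers summing to 123 CPM, against 2.32 to 34.2 CPM. The main values that rest on tumor 36 are also given without it.

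The members differed more between tumors than most genes did, and many had both extremes within 1 line. The fold between the highest and the lowest tumor had a median of 5.14 over the 39 members, against 2.37 over the 16415 genes tested. It exceeded 5 in 21 members (53.8%, against 20.7% of all genes) and stayed under 2 in 9 (23.1%, against 38.0%). Tumor 18 was the highest of the 6 for 22 members (56.4%, against 22.8% of all genes) and tumor 36 for 13 (33.3%, against 24.8%). Tumor 25 was the lowest for 17 and tumor 13 for 15. The highest and the lowest level were both in Osx-Cre;NT3 tumors for 22 members (56.4%, against 24.1% of all genes). Without tumor 18 the median span was 4.10-fold (2.06-fold over all genes) and 13 members exceeded 5-fold, and without tumor 36 it was 4.60-fold (2.06-fold) with 18 members over 5-fold. Tumor 18 was also the most deeply sequenced, at 163297772 counts against at most 75435102 in the others, and the part of depth was not tested.

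Averaged over all members on the log2 scale and centered on the 6 tumors, the level was 0.97 in tumor 18, 0.72 in tumor 36, 0.19 in tumor 27, -0.33 in tumor 29, -0.76 in tumor 25 and -0.80 in tumor 13. Tumor 18 thus lay 1.73 above the next Osx-Cre;NT3 tumor, while tumors 25 and 13 differed by 0.04. Tumors 18, 27 and 36 were the 3 highest for 26 of the 39 members (66.7%), against 6.20% of all genes tested. This set of 3 tumors was picked after the values had been seen.

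**Figure D1:**
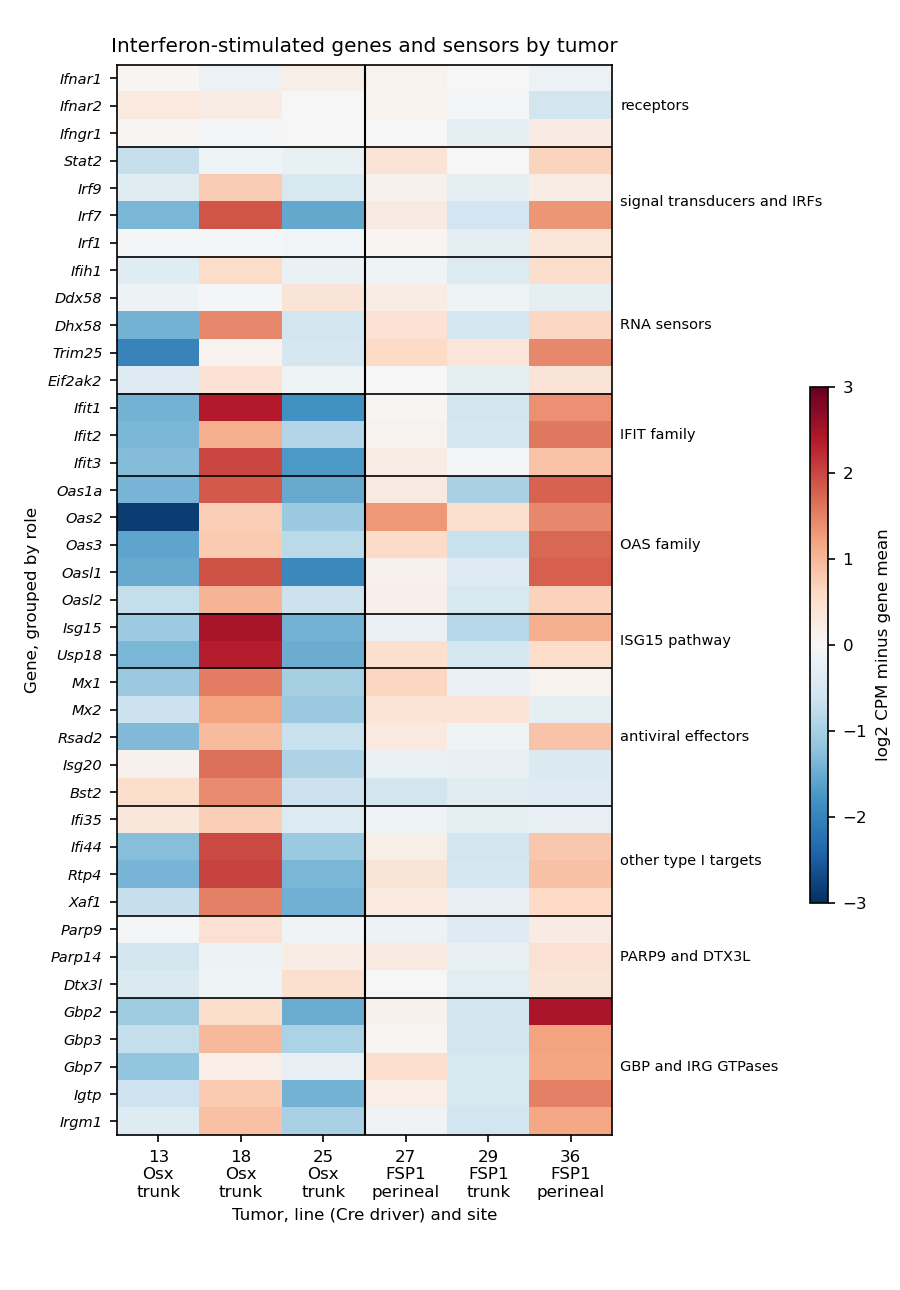
Log2 CPM of each of the 39 genes (rows, by role) in each of the 6 tumors (columns, with line and site) after subtraction of the gene's mean over the tumors, from blue (below the mean) to red (above). Tumor 18 is red in most rows from Irf7 to Xaf1, tumor 36 is reddest in the GBP and IRG rows, tumors 13 and 25 are blue in most rows, and the receptor rows are pale throughout.

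Receptor genes were expressed at near equal levels in all tumors. Ifngr1, the ligand-binding chain of the interferon gamma receptor and the highest of the 3 per length (mean 56.0 RPKM), was at 151, 139 and 147 CPM in Osx-Cre;NT3 tumors 13, 18 and 25 and at 147, 120 and 174 CPM in FSP1-Cre;NT3 tumors 27, 29 and 36. The lines overlapped fully, with means of 146 ± 6.25 and 147 ± 26.6 CPM (SD, n = 3 each). Ifnar1 and Ifnar2, the chains of the type I receptor, spanned 1.28-fold and 1.78-fold among the tumors, with mean levels of 13.8 and 19.7 RPKM. Receptor transcripts were therefore present in every tumor, at a spread that did not follow the order of the induced genes.

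Signal transducers and interferon regulatory factors split into steady and variable genes. Irf1, the factor with the GAS-type match shown above, was the highest per length (28.8 RPKM) and stood at 116, 117 and 113 CPM in tumors 13, 18 and 25 and at 124, 99.2 and 153 CPM in tumors 27, 29 and 36. Its Osx-Cre;NT3 levels were almost equal, and both perineal tumors lay above all trunk tumors by a small margin. Stat2, the STAT that is particular to the type I and III pathways, was at 18.2, 26.6 and 25.1 CPM in tumors 13, 18 and 25 and at 38.0, 29.3 and 46.3 CPM in tumors 27, 29 and 36. Every FSP1-Cre;NT3 value exceeded every Osx-Cre;NT3 value, and tumor 36 was the highest. Irf7, the factor that amplifies type I interferon production and is itself induced, spanned 10.7-fold, with 76.0 CPM in tumor 18 and 7.12 CPM in tumor 25, while Irf9, the DNA-binding partner of STAT2, spanned 2.40-fold.

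Among the RNA sensors and their regulators, Ddx58 (RIG-I) was the highest per length (10.4 RPKM). It was measured at 56.6, 61.7 and 81.6 CPM in tumors 13, 18 and 25 and at 73.3, 57.2 and 51.6 CPM in tumors 27, 29 and 36. Its highest value was in tumor 25 and its lowest in tumor 36, unlike most members. Trim25, the ubiquitin ligase that acts on RIG-I, was at 8.28, 36.0 and 23.4 CPM in tumors 13, 18 and 25 and at 50.2, 42.7 and 90.5 CPM in tumors 27, 29 and 36. The lines did not overlap, and tumor 13 lay far below the others. Dhx58 (LGP2), another helicase of the RIG-I family, spanned 7.20-fold with its highest level in tumor 18, whereas Ifih1 (MDA5) and Eif2ak2 (PKR, the kinase that halts translation on double-stranded RNA) spanned 1.92-fold and 1.74-fold.

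The IFIT genes, whose products bind foreign RNA and block its translation, lie within 99.3 kb on chr19:34550694-34650009 (mm10) and were among the most variable members. Ifit1, the highest of them per length (5.04 RPKM), was at 3.72, 52.0 and 2.81 CPM in tumors 13, 18 and 25 and at 10.3, 6.82 and 25.6 CPM in tumors 27, 29 and 36. The Osx-Cre;NT3 tumors held both extremes, 18.5-fold apart, and the FSP1-Cre;NT3 values lay between them. Ifit3 spanned 13.4-fold with the same tumors at the extremes, and Ifit2 spanned 7.70-fold with its highest level, 33.2 CPM, in tumor 36. Reads may be shared between Ifit3 and its near copy Ifit3b.

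The OAS genes encode sensors of double-stranded RNA that activate RNase L, or, for Oasl1, a relative without that activity, and 3 of them form a cluster on chr5:120730333-120907525 (mm10). Oasl2, the highest per length (10.9 RPKM), was at 23.3, 78.0 and 24.3 CPM in tumors 13, 18 and 25 and at 42.5, 27.3 and 61.5 CPM in tumors 27, 29 and 36. Tumors 18 and 36 were thus high and tumors 13, 25 and 29 low, with tumor 27 between. Oas1a, Oas3 and Oasl1 spanned 10.2-fold, 9.86-fold and 14.3-fold. Oas2 had the widest span of all members, 19.4-fold, but rested on 14 counts in tumor 13, the lowest count of any member. Reads may be shared among the Oas1 copies.

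The ISG15 pathway followed tumor 18 most closely. Isg15, a ubiquitin-like protein that is attached to newly made proteins, was the higher of the 2 members per length (22.5 RPKM) and stood at 6.17, 72.3 and 4.92 CPM in tumors 13, 18 and 25 and at 11.4, 7.23 and 28.1 CPM in tumors 27, 29 and 36. Tumor 18 was 14.7-fold above tumor 25 of the same line and 2.57-fold above tumor 36. Usp18, the protease that removes ISG15 and dampens the type I receptor, spanned 14.2-fold, with 23.2 CPM in tumor 18 and at most 6.69 CPM elsewhere.

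The antiviral effectors were all highest in tumor 18. Bst2 (tetherin), which holds budding virus at the cell surface, was the highest member of the whole set per length (99.6 RPKM) and was at 120, 224 and 53.4 CPM in tumors 13, 18 and 25 and at 57.5, 65.4 and 64.1 CPM in tumors 27, 29 and 36. Unlike most members it was also high in tumor 13 and nearly equal in tumor 25 and the FSP1-Cre;NT3 tumors. Isg20, an exonuclease, had the same order at the top, with 68.6 CPM in tumor 18 and 23.5 CPM in tumor 13. Mx1 and Mx2, dynamin-like GTPases, and Rsad2 (viperin) were low per length, with means of 0.83, 0.42 and 0.76 RPKM, and spanned 6.33-fold, 5.02-fold and 4.85-fold.

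Of the other type I targets, Ifi35, a regulator of RIG-I and inflammatory signaling, was the highest per length (32.6 RPKM) and was at 67.5, 89.3 and 40.1 CPM in tumors 13, 18 and 25 and at 49.0, 43.5 and 45.3 CPM in tumors 27, 29 and 36. It shared with Bst2 a high level in tumors 18 and 13. Rtp4, Ifi44 and Xaf1 spanned 10.8-fold, 9.55-fold and 7.78-fold, each highest in tumor 18 and next in tumor 36.

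The ADP-ribosyltransferases Parp9 and Parp14 and the ubiquitin ligase Dtx3l, a partner of PARP9, varied little. Parp9 (17.9 RPKM) was at 76.3, 108 and 72.5 CPM in tumors 13, 18 and 25 and at 70.1, 59.7 and 92.2 CPM in tumors 27, 29 and 36. The lines overlapped in part, with tumor 18 above and tumors 27 and 29 below all tumors of the other line. Dtx3l and Parp14 spanned 1.89-fold and 2.04-fold. The deposited positions of Parp9 and Dtx3l overlap, and since the strand setting of the counting is not given in the sources used here, reads in the shared stretch cannot be assigned between them.

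The GBP and IRG GTPases, which attack vacuoles of intracellular microbes and respond strongly to interferon gamma, were all highest in tumor 36. Irgm1, the highest per length (19.3 RPKM), was at 35.7, 85.2 and 23.8 CPM in tumors 13, 18 and 25 and at 43.1, 31.0 and 104 CPM in tumors 27, 29 and 36. Gbp2, of chr3:142620663-142638008 (mm10), was at 16.9, 50.9 and 12.6 CPM and at 38.4, 24.3 and 192 CPM in the same order, so that tumor 36 was 3.77-fold above tumor 18 and 15.2-fold above tumor 25. Gbp7, of chr3:142530338-142550083 in the same cluster, was at 8.32, 21.6 and 15.9 CPM and at 26.7, 13.4 and 42.7 CPM, and both perineal tumors exceeded all trunk tumors. Gbp3 and Igtp spanned 4.44-fold and 7.62-fold with tumor 18 second to tumor 36. The GBP genes resemble each other in sequence, and reads may be divided among them.

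**Figure D2:**
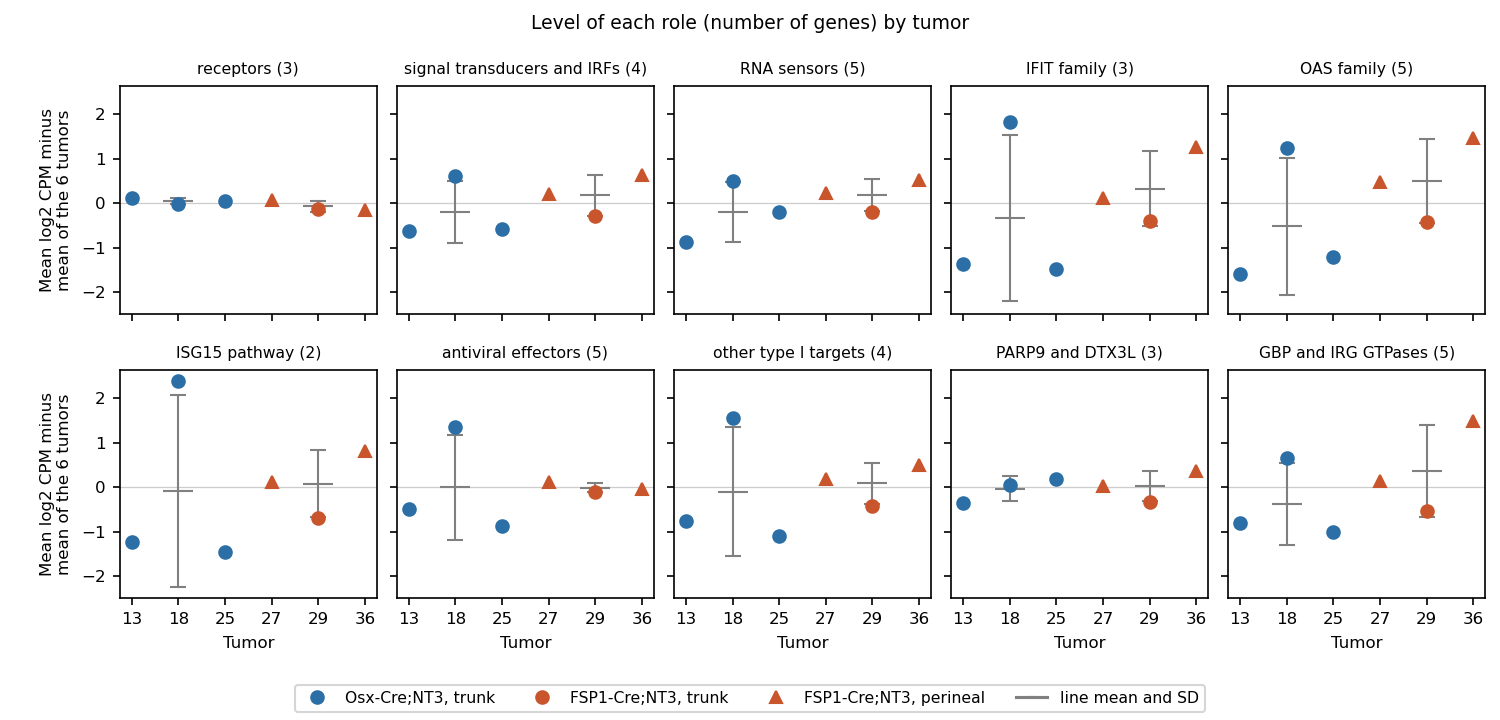
Mean log2 CPM of the genes of each role in each tumor, relative to the mean of the 6 tumors, with the number of genes in parentheses, circles for trunk and triangles for perineal tumors, and gray bars for the mean and SD of each line. In the IFIT, OAS, ISG15 and other type I target panels tumor 18 lies far above tumors 13 and 25 of its own line. Tumor 36 is the highest in the GBP and IRG panel (1.50, against 0.67 in tumor 18). By less, tumor 36 is also above tumor 18 in the OAS (1.47, against 1.25), signal transducer (0.64, against 0.62) and RNA sensor panels (0.53, against 0.50). In the PARP9 and DTX3L panel tumor 36 is the highest too (0.36). The receptor panel is flat (-0.16 to 0.13).

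Comparison of the lines asked whether tumors from the 2 Cre drivers differed in these genes. No member passed the threshold of adjusted p 0.05 (edgeR quasi-likelihood test with Benjamini-Hochberg adjustment, smallest adjusted p 0.458), and 0 of all 16415 genes did (0%, smallest adjusted p 0.359). At an unadjusted p under 0.05 there were 1770 such genes, and 2 members, both higher in FSP1-Cre;NT3 tumors, a share of 5.13% against 7.31% of all genes in that direction. By DESeq2, 452 genes were called (2.73%), 0 of them among the 37 members that received a p. Ifit3 and Usp18 received none, so the 0 does not cover them. Both were among the members that DESeq2 called without tumor 18, described below.

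Stat2 and Trim25 were those 2 members, and also the only ones whose lines did not overlap (5.13%, against 17% of all genes in either direction). Stat2 averaged 23.3 ± 4.46 CPM in Osx-Cre;NT3 and 37.9 ± 8.52 CPM in FSP1-Cre;NT3 tumors (SD, n = 3 each), a log2 fold change of 0.70 ± 0.26 (SE), with an unadjusted p of 0.0310 and an adjusted p of 0.458 in edgeR. Trim25 averaged 22.6 ± 13.9 and 61.1 ± 25.7 CPM, a log2 fold change of 1.44 ± 0.55, with an unadjusted p of 0.0367 and an adjusted p of 0.458 in edgeR. Without tumor 36 these differences were 0.53 and 1.04 on the log2 scale, with unadjusted edgeR p of 0.0861 and 0.114. Bst2 had the lowest log2 fold change of the members, -1.08 ± 0.47, with an unadjusted p of 0.0570 in edgeR, from means of 132 ± 85.8 CPM in Osx-Cre;NT3 and 62.4 ± 4.23 CPM in FSP1-Cre;NT3 tumors. Without tumor 18 its value was -0.48, with an unadjusted edgeR p of 0.225.

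The median log2 fold change between lines was 0.01 over the members and 0.01 over all genes tested, with 21 members above 0 and 18 below. Its components differed in size by role. The 5 GBP and IRG GTPases had values from 0.30 to 1.66, the 5 OAS genes from 0.06 to 1.52, and Isg15 and Usp18 -0.84 and -0.72. Without tumor 36 the GBP and IRG values ran from -0.38 to 0.39 with a median of 0.02 and 3 of 5 above 0, where the median had been 0.78, and the OAS values from -0.75 to 1.33 with 2 of 5 above 0. None of these passed the test, and the standard errors of the members ran from 0.18 to 1.14, with a median of 0.65. The widest errors belonged to the genes with extremes inside the Osx-Cre;NT3 line, such as Ifit1 (-0.46 ± 1.14).

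**Figure D3:**
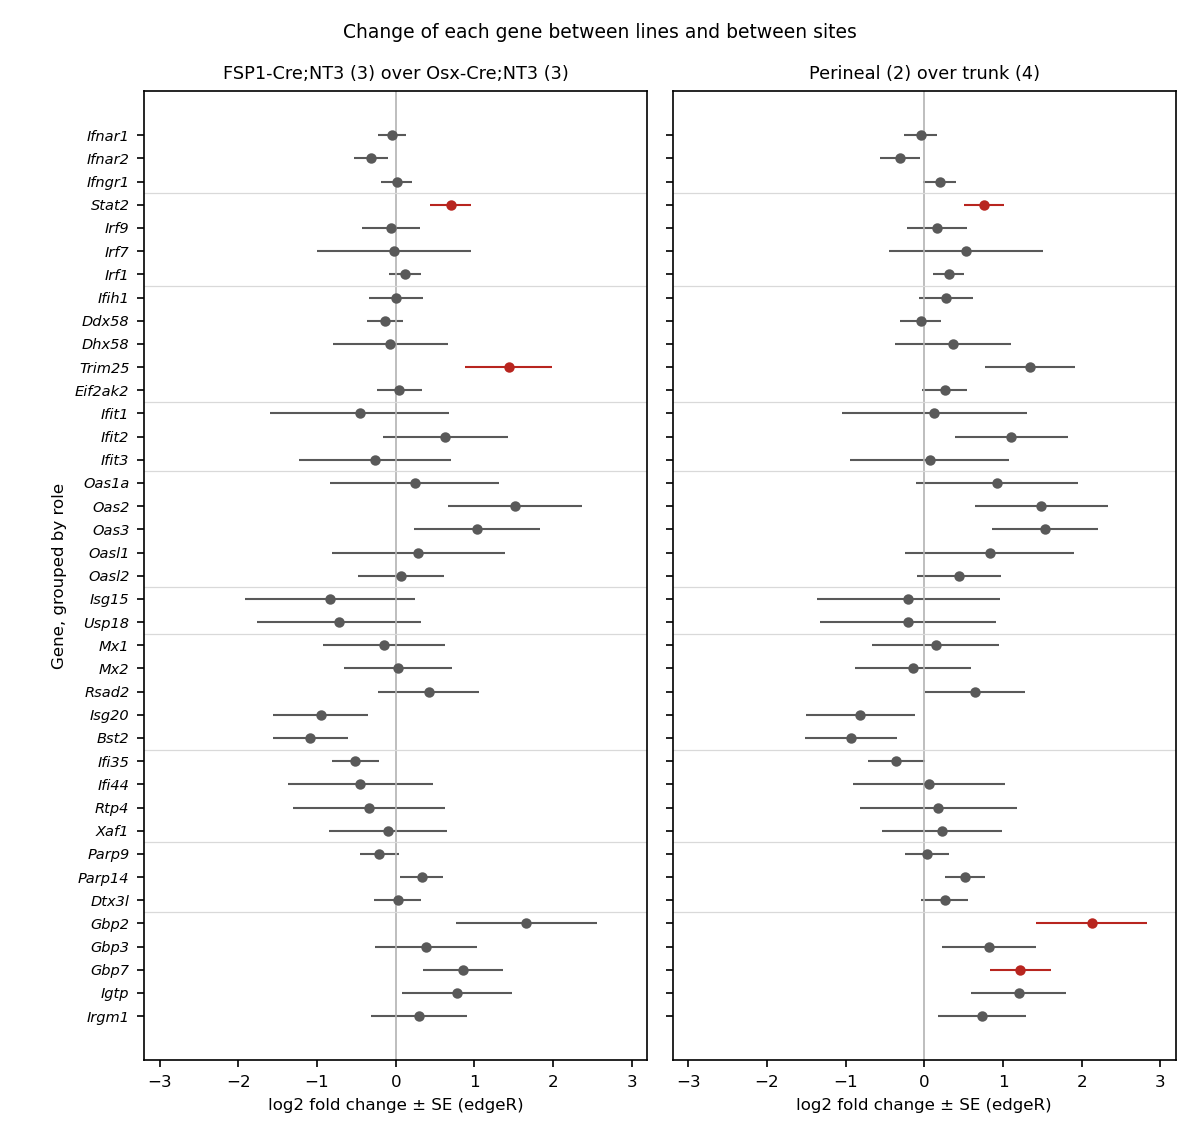
Log2 fold change with its standard error (edgeR) for each gene, with the FSP1-Cre;NT3 mean over that of Osx-Cre;NT3 on the left and perineal over trunk tumors on the right, with red marking an unadjusted p under 0.05. Most bars cross or lie close to 0 on the left, and on the right the GBP and IRG genes at the bottom lie from 0.74 to 2.13, a range that became -0.03 to 0.85 without tumor 36.

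The line comparison turned on tumor 18. With tumor 18 left out, the median log2 fold change of the members became 1.18, against -0.03 for all genes tested, and 31 members lay above 0. An unadjusted p under 0.05 in edgeR was reached by 18 of the 39 (46.2%), all with the higher level in FSP1-Cre;NT3, against 6.50% of all genes, but 0 passed after adjustment (smallest adjusted p 0.557). By DESeq2, 8 members passed an adjusted p of 0.05 (20.5%, against 2.80% of genes called in that direction), namely Ifit1, Ifit3, Irf7, Oas2, Oasl1, Rtp4, Trim25 and Usp18. Ifit1 changed most in position, from -0.46 with all tumors to 2.12 without tumor 18. Leaving out tumor 18, the highest for 22 members, kept only tumors 13 and 25 as Osx-Cre;NT3 tumors. These were the lowest for 15 and 17 members. Many members also shared an order of tumors and do not count as separate results. The shares therefore show the weight of tumor 18 and do not test a difference between lines.

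With each of the other 5 tumors left out in turn, the median of the members stayed between -0.28 and 0.15. Without tumor 25, DESeq2 called Bst2, Isg20 and Ifi35 lower in FSP1-Cre;NT3 tumors, 7.69% of members against 11.9% of genes in that direction, and without tumors 13, 27, 29 or 36 it called 0. The direction of many members between the lines thus changed with a single tumor. Among trunk tumors alone, where tumor 29 was the single FSP1-Cre;NT3 tumor and was assumed to vary like the others, the median was -0.53, with 4 members above 0 and 0 at an unadjusted p under 0.05.

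**Figure D4:**
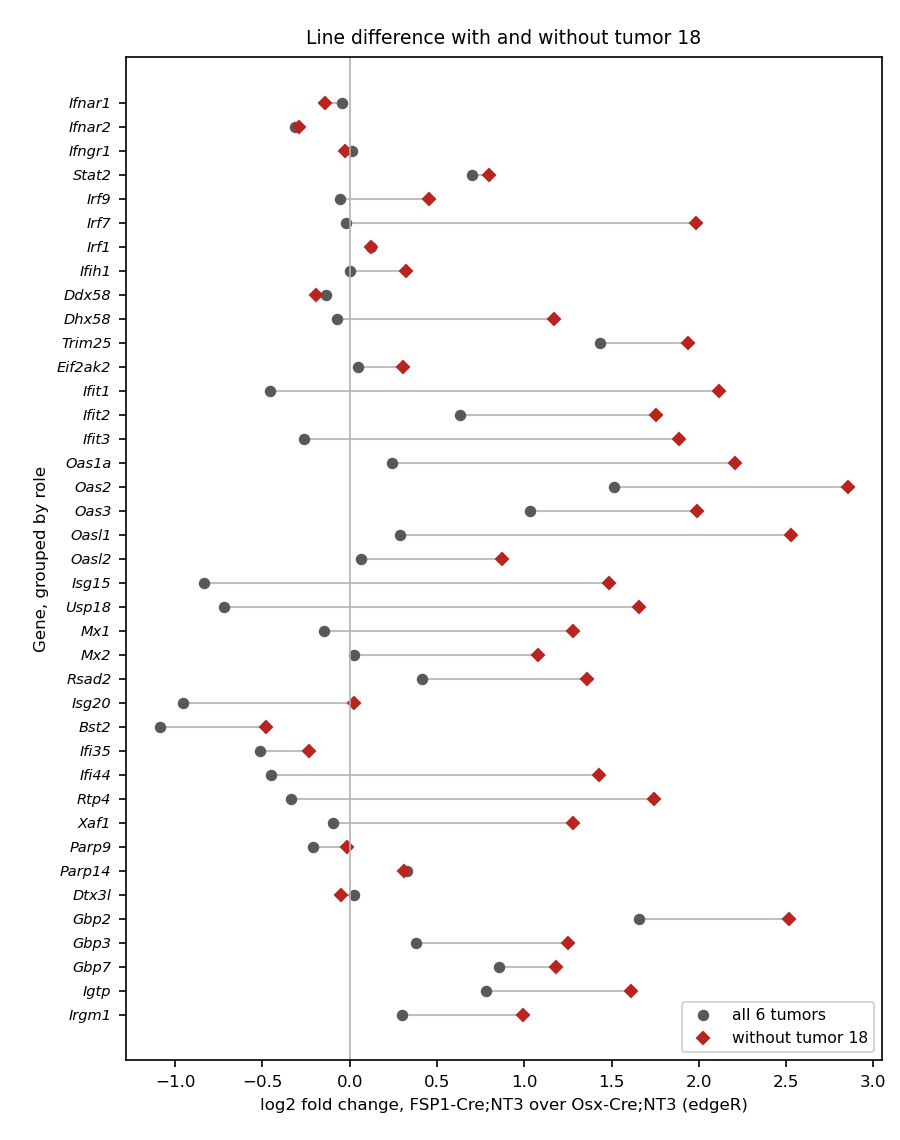
Log2 fold change of each gene between the lines (edgeR, positive where FSP1-Cre;NT3 is higher), with all 6 tumors (gray circles) and without tumor 18 (red diamonds), each pair joined by a line. For 22 genes the diamond lies above 1, at most at 2.85, while those of the receptors, Irf1, Ddx58, Parp9, Parp14 and Dtx3l move little.

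Comparison of the sites set the perineal tumors 27 and 36, both FSP1-Cre;NT3, against the 4 trunk tumors. No member passed (smallest adjusted edgeR p 0.345), and 0 of 16971 genes did (0%, smallest adjusted p 0.263), with 1784 genes at an unadjusted p under 0.05. At that level there were 3 members, Stat2, Gbp2 and Gbp7, all higher in perineal tumors, 7.69% against 8.88% of all genes in that direction. By DESeq2, 734 genes were called (4.24%), 0 of them members (smallest adjusted p 0.0737, for Gbp2). DESeq2 gave no p to Ifi44, Ifit1, Irf7, Isg15, Oas1a, Oasl1, Rtp4 and Usp18.

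Gbp7 averaged 14.8 ± 5.51 CPM in trunk (SD, n = 4) and 34.7 ± 11.3 CPM in perineal tumors (n = 2), a log2 fold change of 1.22 ± 0.39, with an unadjusted p of 0.0156 and an adjusted p of 0.345 in edgeR. Gbp2 averaged 26.2 ± 17.2 and 115 ± 109 CPM, a log2 fold change of 2.13 ± 0.70 with an unadjusted p of 0.0185 and an adjusted p of 0.355 in edgeR. Stat2 averaged 24.8 ± 4.71 and 42.1 ± 5.89 CPM, a log2 fold change of 0.76 ± 0.25 with an unadjusted p of 0.0189 and an adjusted p of 0.358 in edgeR. Gbp2 overlapped between the sites, since trunk tumor 18 exceeded perineal tumor 27, and without tumor 36 its difference was 0.55 with an unadjusted edgeR p of 0.456, against 0.85 (p 0.127) for Gbp7 and 0.61 (p 0.113) for Stat2.

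Perineal levels lay above all trunk levels for 6 members, Stat2, Irf1, Trim25, Oas2, Parp14 and Gbp7 (15.4%, against 9.98% of all genes in that direction), and lay below them for 0 members. The median log2 fold change was 0.26 over the members and -0.02 over all genes, and 30 members were above 0. Without tumor 36 the median was 0.077, with 23 members above 0. Within the FSP1-Cre;NT3 line alone, trunk tumor 29 was the lowest of the 3 for 33 of 39 members (84.6%), against 31.9% of all genes tested. Within the trunk site, tumor 18 was the highest of the Osx-Cre;NT3 tumors for 33 members as well (84.6%), against 37.5% of all genes. Tumors 29 and 18 were singled out here after the values had been seen, so these shares describe them and test nothing. Without tumor 18, 22 members had an unadjusted p under 0.05 between sites in edgeR, all higher in perineal tumors (56.4%, against 9.01%), 0 after adjustment (smallest adjusted p 0.340), and DESeq2 called 16 of them (41.0%, against 4.23%), all 16 higher. As between the lines, these shares show the weight of tumor 18 and do not test a difference between sites. Without tumor 27, with tumor 36 as the single perineal tumor, which was assumed to vary like the trunk tumors, DESeq2 called Gbp2 (2.56% of members, against 6.78%).

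The ligands and the rest of the pathway were taken from lists of 134 further genes in the table, 114 of which could be tested. Of 20 entries for type I and type III interferons, 14 had a count of 0 in all tumors and the other 6 had at most 8 counts in any tumor (at most 0.113 CPM). A count of 0 allows up to 0.0184 to 0.0579 CPM in these libraries, and such limits cover counting error only. Every deposited count is even, for a reason not given in the sources used here, and if each read added 2 counts the limits would be 0.0367 to 0.116 CPM. Ifng, the interferon gamma gene made by T and NK cells, was at 0.66, 1.82 and 0.37 CPM in tumors 13, 18 and 25 and at 0.89, 0.36 and 0.91 CPM in tumors 27, 29 and 36. Tumor 18 was the highest, on 280 counts, and tumor 36, on 58 counts, came next with tumor 27 at nearly the same level, while tumors 25 and 29 were the lowest and nearly equal.

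Over the 114 genes, 0 passed the edgeR test after adjustment in either comparison. At an unadjusted p under 0.05, 3 of them had the higher level in the FSP1-Cre;NT3 line (2.63%, against 7.31% of all genes) and 4 the lower (3.51%, against 3.47%). Between sites, 15 had the higher level in perineal tumors (13.2%, against 8.88%) and 0 the lower (against 1.63%), and without tumor 36 there were 4 with the higher level (3.51%, against 1.59%). Socs3, a feedback inhibitor of JAK kinases, differed between sites by 1.23 ± 0.24 on the log2 scale, and Irf4, a factor of lymphocytes and dendritic cells, by 2.43 ± 0.56, both with an adjusted p of 0.263 in edgeR, and by 1.32 ± 0.32 and 1.87 ± 0.67 without tumor 36. Ifngr2, the signaling chain of the gamma receptor, had a log2 fold change between lines of -0.46 ± 0.19, with an adjusted p of 0.458 in edgeR.

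Sensors and adaptors outside the set varied less than the members, with a median span of 1.72-fold over 18 genes. The median span of the 68 other induced genes was 3.56-fold. Of these 68, 30 were highest in tumor 18 and 24 in tumor 36, where the shares of all genes tested were 22.8% and 24.8%. The widest log2 fold change among them belonged to Gm14446 (Ifit1bl1), a neighbor of the IFIT genes, with 1.20, 8.80 and 0.53 CPM in tumors 13, 18 and 25 and 2.02, 1.28 and 202 CPM in tumors 27, 29 and 36. That level was thus found in tumor 36 alone, and without it the difference between sites was -0.55 ± 1.49.

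Markers of immune cells moved with the order of the tumors in part. Summed T cell markers (8 of 8 in the table) were highest in tumor 18 (204 CPM), then 150 CPM in tumor 27, 128 in tumor 36, 127 in tumor 13, 76.8 in tumor 29 and 60.5 in tumor 25. Of the 8, 5 were highest in tumor 18, Cd3e and Cd5 in tumor 27, and Cd4 in tumor 36 (33.6 CPM, against 19.9 CPM in tumor 18). Summed NK and cytotoxic markers (7 of 7) were at 93.8 CPM in tumor 18 and from 19.5 to 41.6 CPM in the others. Gzma and Gzmb made up 40.9 and 25.5 CPM of the sum in tumor 18. Of the 7, 5 were highest in tumor 18, while Prf1 and Eomes were highest in tumor 27 (1.99 and 1.81 CPM, against 0.90 and 0.96 CPM in tumor 18). Neutrophil markers (6 of 6) summed to 517 CPM in tumor 36 and 218 CPM in tumor 27, against 70.6 to 102 CPM in the trunk tumors. S100a8 and S100a9 made up 165 and 269 CPM of the sum in tumor 36. Of the 6 genes, 5 were highest in tumor 36, and Mmp9 was highest in trunk tumor 25 (58.5 CPM, against 39.4 CPM in tumor 36). Macrophage markers (9 of 9) had their highest sum in tumor 13 (3915 CPM, of which Lyz2 made up 2273 CPM), but on the mean log2 scale tumors 36, 18 and 13 were close, at 0.36, 0.34 and 0.30 above the mean of the tumors, and tumors 13 and 36 were each highest for 4 of the 9. Plasmacytoid dendritic cell markers (5 of 5), from the cells known for type I interferon, summed to between 3.33 and 11.5 CPM. The highest sum was in tumor 18, while 3 of the 5 and the mean log2 level (0.95, against 0.78 in tumor 18) were highest in tumor 36. B cell markers (5 of 5) summed to between 7.04 and 16.0 CPM, the highest in tumor 36. No defining marker of these lists was at 0 in all tumors. Their part in the levels of the interferon-stimulated genes was not tested.

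Fibroblast markers (8 of 8) summed to between 5666 and 7414 CPM in Osx-Cre;NT3 and between 12368 and 15692 CPM in FSP1-Cre;NT3 tumors, so the lines did not overlap in them. Endothelial markers (5 of 5) were lowest in tumor 18 (110 CPM, against 210 to 361 CPM in the others). Pan-leukocyte markers (7 of 7) summed to 1241 CPM in tumor 18 and 1034 CPM in tumor 27, and to between 638 and 950 CPM in the others. On the mean log2 scale tumor 18 (0.63) was followed by tumor 36 (0.26) and tumor 27 (0.13), and 5 of the 7 were highest in tumor 18. Ptprc (CD45) was instead highest in tumor 36 (115 CPM, against 91.6 CPM in tumor 18), and Laptm5 in tumor 13 (186 CPM, against 135 CPM). The part of these markers was not tested either.

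The span among tumors was also set against level and promoter motif. Members that spanned over 5-fold had a median level of 3.23 RPKM, those from 2-fold to 5-fold 10.9 RPKM and those under 2-fold 13.8 RPKM. The 16 members with the ISRE-type motif spanned from 1.58-fold to 18.5-fold with a median of 4.99, and the 15 without it in the window from 1.28-fold to 14.3-fold with a median of 3.35. For the GAS-type motif the medians were 4.19 in the 11 with it and 6.32 in the 20 without it. All of these groups held wide and narrow spans, and Irf7, Trim25 and Oasl1 spanned over 10-fold with no match in the window. No match says only that these letters are absent from it.

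**Figure D5:**
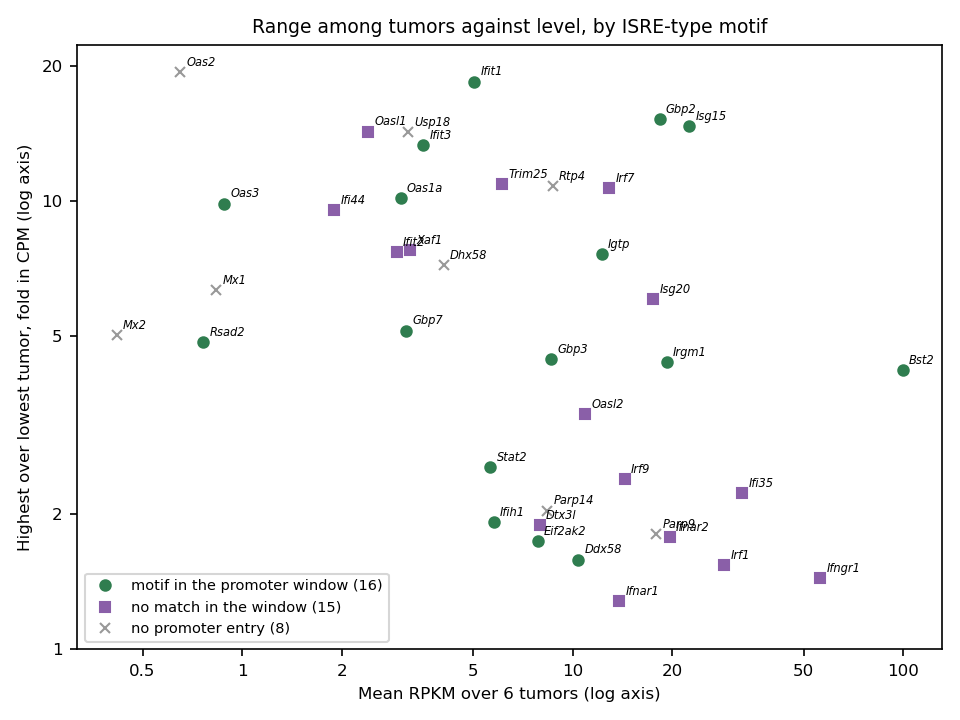
Fold between the highest and the lowest tumor in CPM against the mean RPKM over the 6 tumors, both on log axes, for each of the 39 genes, with the ISRE-type motif present (green circles), absent (purple squares) or no promoter entry (gray crosses). Wide spans occur with and without the motif, and the highest gene, Bst2 at 99.6 RPKM, spanned 4.19-fold.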

How the data were processed

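Counts per gene and RPKM values were deposited by the authors for 6 tumors. The methods name HISAT2 (Galaxy version 2.1.0) and featureCounts, the submitters' processing notes TopHat2 2.0.6 and HTSeq, and both the mm10 build, so which tools made the table is not settled. Every deposited count is even, for a reason not given in the sources used here, and Rn45s took 5.28% to 13.3% of counts. No column of per-sample values was left out. Samples were grouped by their labels. The 39 members and all gene lists were chosen with earlier results of these data known.

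For tests on counts, edgeR 4.0.16 (R 4.3.3) was used (filterByExpr, TMM, quasi-likelihood fit, Benjamini-Hochberg adjustment over all genes tested, no covariate), after checks on simulated counts. Standard errors given with edgeR fold changes were derived as the absolute log2 fold change divided by the square root of the F statistic. CPM for the member means had a prior count of 2. Alternatives were DESeq2 1.42.0, limma 3.58.1 on log2(RPKM + 0.1), other scalings and filters, halved counts, covariates and leaving out each tumor. DESeq2 without each tumor was added after the data were seen. Values in every tumor are printed for members with an unadjusted p under 0.05 and for the highest of each role by RPKM. Some genes of the lists are counted but not reported by name. No set test was run. At these depths the number of tumors, not counting error, limits the precision. Of the members, 8 lie within the listed span of a small RNA entry.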

Additional observations from a re-analysis of the deposited data

Results flagged for a closer look

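In none of the 50 levels examined (39 members, 10 roles and their overall mean, on the log2 scale) was the gap between the highest or lowest tumor and its nearest neighbor large enough against the range of the 6 tumors to pass Dixon's 95% critical value for 6 values, a test that chance alone would pass in about 1 of 20 groups.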

How the results depend on the processing

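With edgeR or limma, 0 members were called in either comparison under any alternative run. DESeq2 without each tumor in turn called 0 to 8 members between lines and 0 to 16 between sites (1 without tumor 27), the largest numbers without tumor 18. Members at an unadjusted p under 0.05 between lines numbered 2 as reported and 4 by DESeq2, of the 37 with a p. They numbered 0 with site as a covariate and 0 to 18 with a tumor left out. Between sites they numbered 3 as reported and 5 by DESeq2, of the 31 with a p. They numbered 5 with library sizes alone, 8 by limma on log2(RPKM + 0.1), 0 with line as a covariate and 0 to 22 with a tumor left out. The median log2 fold change ran from -0.28 to 1.18 between lines and from 0.077 to 1.23 between sites with a tumor left out. With site as a covariate it was -0.52 between lines, with 4 members above 0, and with line as a covariate 0.71 between sites, with 34 above 0, against 0.01 and 0.26 as reported. By limma it was 0.41 and 0.78 (0.12 and 0.11 over all genes), and the ISG15 pathway then lay above 0 in both comparisons. These are unlike measures, since limma compared means of log2 values and edgeR compared mean levels fitted to counts. The part of this difference was not tested. Library sizes alone moved the median of all genes between lines from 0.01 to 0.12 and that of the members to 0.12. Over all genes, DESeq2 called 452 between lines and 734 between sites where edgeR called 0, and edgeR called 567 between sites without tumor 27 and 2 without tumor 25. The order of the 6 tumors by mean level of the members was the same with a prior count of 0.5, with library sizes alone and by the authors' RPKM. No paired analysis was possible because the lines share no replicate numbers.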

Other observations

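The MHC class I genes, which present peptides to T cells and respond to both kinds of interferon, varied little, with mean log2 levels from -0.18 (tumor 29) to 0.15 (tumors 13 and 18) around the mean of the 6 tumors. Of the 11 genes, 5 were highest in tumor 18, 3 in tumor 27, 2 in tumor 36 and 1 in tumor 13, and only B2m had an unadjusted p under 0.05 between lines. B2m, the light chain and the highest of them per length, was at 3951, 4646 and 2985 CPM in tumors 13, 18 and 25 and at 2575, 2523 and 2388 CPM in tumors 27, 29 and 36, with a log2 fold change between lines of -0.63 ± 0.26 (unadjusted p 0.0478, adjusted p 0.458 in edgeR, FSP1-Cre;NT3 over Osx-Cre;NT3). All Osx-Cre;NT3 values exceeded all FSP1-Cre;NT3 values. Ifitm3, an interferon-induced membrane protein that blocks virus entry and the highest of the other induced genes per length (917 RPKM), was also higher in each Osx-Cre;NT3 tumor, with 1243, 945 and 688 CPM against 646, 535 and 443 CPM, a log2 fold change of -0.82 ± 0.29 (unadjusted p 0.0255, adjusted p 0.458 in edgeR).

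Plac8, a gene of immune and epithelial cells, was at 594 CPM in tumor 36 and between 3.43 and 35.8 CPM in the other 5, and with Gm14446 it had the widest difference between sites of the induced genes (log2 4.32 ± 1.26, adjusted p 0.307 in edgeR), which was 0.17 ± 1.06 without tumor 36.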
